A study of Homo sapiens with 9 samples.

Results

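The genes described here make cholesterol from acetyl-CoA, control that synthesis through the SREBP transcription factors, or move and store the product. They were chosen by name, as 28 listed genes, and every probe set whose platform symbol was a listed gene was taken. Of these, 27 had at least 1 probe set of their own, out of 19775 genes named on the array, and they had 56 probe sets out of 54613. For FDFT1, the squalene synthase gene, no probe set carried that name alone, and it was not analysed here. The arrays measured total RNA of HuCCT1, a human cell line derived from a tumour of the bile ducts. There were 5 arrays of cells given a vector for YAP S127A and 4 of cells given the empty vector. YAP1, a transcriptional co-activator, is restrained by the kinases of the Hippo pathway through a serine that S127A replaces, which makes it constitutively active. All 9 samples were grown in the same serum-containing medium, and the question put to them was how overexpression of this form changes the transcriptome. The sources used here do not say whether samples of a group were separate cultures or transfections, how long after transfection they were harvested, or whether the cells were a pool or a clone. So p-values here reflect the spread among these arrays alone, which may be technical. Signal comes from bulk RNA, in which fewer cells of a type and less RNA per cell cannot be told apart.

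Cholesterol synthesis starts with the condensation of acetyl-CoA units into HMG-CoA, goes through mevalonate and the prenyl diphosphates to squalene, and closes the sterol rings at lanosterol, which a series of enzymes then turns into cholesterol. The pathway is controlled by SREBP2, a membrane-bound transcription factor. With ample sterol, INSIG proteins hold SREBP2 and its escort SCAP in the endoplasmic reticulum. When sterol is low the complex travels to the Golgi, where proteases release the active part, which enters the nucleus and switches on the genes of the pathway together with NF-Y and Sp1. SREBP2 acts on its own gene too. Bile, which flows past the bile duct epithelium, carries cholesterol.

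The 6 promoters below are shown because they belong to the 6 genes with the widest differences, 5 of them higher with YAP S127A and the last, NPC1, lower. Each is the 250 bases before a RefSeq transcript start (GRCh38.p14), 5′ to 3′ on the gene's strand, and capitals mark NF-Y boxes (CCAAT, or ATTGG on the other strand) and the sterol regulatory element (TCACNCCAC).
HMGCS1 promoter, chr5:43313413-43313662, minus strand: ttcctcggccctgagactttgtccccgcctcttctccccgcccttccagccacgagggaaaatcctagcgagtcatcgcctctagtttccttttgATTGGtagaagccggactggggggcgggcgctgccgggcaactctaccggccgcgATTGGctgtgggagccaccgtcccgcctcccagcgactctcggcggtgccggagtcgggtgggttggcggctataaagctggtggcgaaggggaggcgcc
IDI1 promoter, chr10:1049120-1049369, minus strand: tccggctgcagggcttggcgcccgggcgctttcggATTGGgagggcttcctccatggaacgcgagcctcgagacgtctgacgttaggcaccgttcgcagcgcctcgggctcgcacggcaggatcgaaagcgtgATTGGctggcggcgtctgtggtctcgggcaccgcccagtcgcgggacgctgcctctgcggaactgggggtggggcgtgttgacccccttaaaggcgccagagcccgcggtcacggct
MVD promoter, chr16:88663092-88663341, minus strand: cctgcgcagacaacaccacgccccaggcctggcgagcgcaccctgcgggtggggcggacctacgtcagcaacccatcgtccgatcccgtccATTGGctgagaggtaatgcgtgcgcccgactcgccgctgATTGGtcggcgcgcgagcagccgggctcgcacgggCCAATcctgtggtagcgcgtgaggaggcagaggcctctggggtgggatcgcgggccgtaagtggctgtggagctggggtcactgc
MSMO1 promoter, chr4:165327419-165327668, plus strand: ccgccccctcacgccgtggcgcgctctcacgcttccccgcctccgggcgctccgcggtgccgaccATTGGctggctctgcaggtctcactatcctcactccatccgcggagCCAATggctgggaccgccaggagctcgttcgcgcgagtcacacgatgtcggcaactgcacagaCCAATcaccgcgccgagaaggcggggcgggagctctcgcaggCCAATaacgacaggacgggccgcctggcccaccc
SREBF2 promoter, chr22:41832855-41833104, plus strand: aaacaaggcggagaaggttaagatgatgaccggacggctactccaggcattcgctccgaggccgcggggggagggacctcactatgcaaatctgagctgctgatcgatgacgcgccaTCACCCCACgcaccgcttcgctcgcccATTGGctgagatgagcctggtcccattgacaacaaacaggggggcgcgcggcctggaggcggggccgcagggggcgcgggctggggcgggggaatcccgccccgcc
NPC1 promoter, chr18:23586507-23586756, minus strand: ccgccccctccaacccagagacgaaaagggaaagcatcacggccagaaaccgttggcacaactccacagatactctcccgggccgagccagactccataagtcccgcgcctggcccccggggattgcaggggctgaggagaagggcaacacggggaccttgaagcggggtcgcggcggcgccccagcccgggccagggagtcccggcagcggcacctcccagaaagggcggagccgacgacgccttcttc
Of the windows not shown, the second of HMGCS1 and the third of IDI1 hold neither motif, while GGPS1, which fell, holds an NF-Y box in 1 of its 3 windows. Of the 28 listed genes, 25 had RefSeq windows, which run from 250 bases before to 50 after a start. A gene counted as holding a motif if any of its windows did, on either strand. An NF-Y box was found in 19 of the 25 genes, against 41.7% of the 15384 genes on the array with a window. Among the 11 genes of the group that rose with YAP S127A it was found in 10, and among the other 14 in 9. Of all genes that rose, 40.8% held the box, and of all that fell, 44%. The exact sterol regulatory element was found in SREBF2 alone, where it starts 133 bases before the transcript start, against 1.43% of genes on the array. A GC box (GGGCGG), the site of Sp1, was found in 23 of the 25 genes against 64.6%, and an E-box (CACGTG) in 4 against 10.9%. The GC box was held by 74.2% of all genes that rose and 74% of all that fell. The TEAD element (GGAATG), the site of the DNA-binding partners of YAP1, was found in 5 of the 25 genes against 15.7% and in 0 of the 11 that rose. It was held by 17.3% of all genes that rose and 14.6% of all that fell, so few matches would be looked for among 11 genes. Each motif was searched on its own, so matches of different motifs may share bases, and a match is only a match of letters.

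Cells with YAP S127A had more transcript of many genes of the pathway, with the highest rises at IDI1, SREBF2, MVD and HMGCS1, and less of 3 genes, NPC1, PMVK and GGPS1. The genes around IDI1, SREBF2 and MVD on their chromosomes were higher too, as given below. Those around PMVK and GGPS1 were lower, at -0.21 and -0.26, and with them removed neither gene passed. NPC1 passed at its brightest probe set and not at its dimmer ones. Differences are on the log2 signal scale, YAP S127A minus empty vector, from the brightest probe set of each gene, and a gene was called where its limma p, adjusted over all 54613 probe sets, was under 0.05. Of the 27 genes 14 passed, where 28.7% of all 19775 genes did. Of the 27, 11 rose (40.7%), where 14.5% of all genes rose. In the other direction 3 fell (11.1%), where 14.2% of all genes fell. The median difference over the 27 genes was +0.17, against +0.00 over all genes. Above 0 were 22 of the 27 differences, some of them barely, where 10107 of all 19775 genes were. Counted by arrays, 14 genes lay higher on every YAP S127A array than on any empty vector array, where 14.5% of all genes did, and 2 lay lower on every one, where 13.8% did, so 16 did not overlap in either direction, against 28.3% of all genes. No filter on low values was used. All 27 brightest probe sets had group means above 5.96, the median of all probe sets, and the lowest of these means was 7.02. The shares of all genes and probe sets given here and below include dim ones, so they are not shares among equally bright genes. With dim probe sets left out, 15 of the 27 genes rose and 3 fell, and 5861 genes passed in all. For scale, 12209 genes with a known place on a chromosome had a mean above 5.96.

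**Figure D1:**
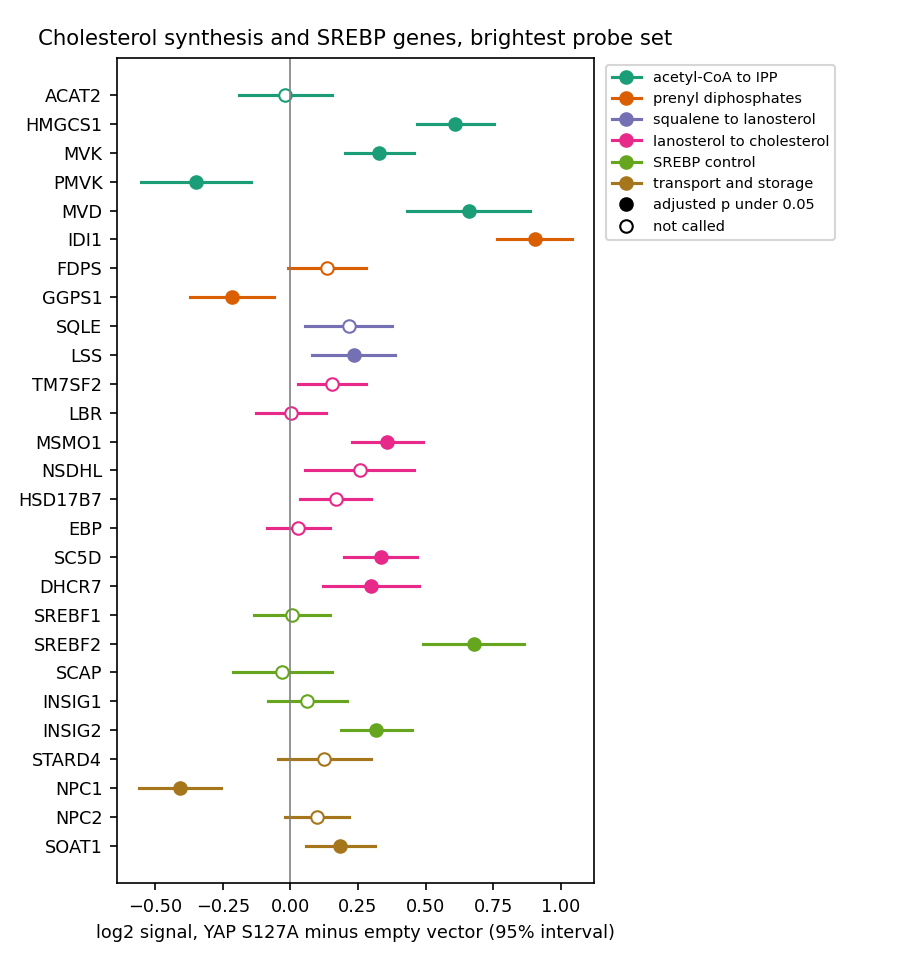
Log2 signal difference (x axis, YAP S127A minus empty vector) of the brightest probe set of each of 27 genes, in the order of the pathway, with 95% intervals from limma and colours for the role (IPP, isopentenyl diphosphate). Filled points passed an adjusted p of 0.05: IDI1 at 0.90, SREBF2 at 0.68, MVD at 0.66 and HMGCS1 at 0.61 lie farthest to the right, and NPC1 at -0.41 lies farthest to the left.

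The arrays themselves were alike in level, with median log2 signals that all lay close to 5.96. The cells kept markers of bile duct epithelium: KRT7, KRT19, EPCAM and SOX9 had group means of 12.84 to 14.21, and SOX9 was lower with YAP S127A. Of 15 markers of hepatocytes, fibroblasts, leukocytes and endothelium, 11 had means below 5.96 in both groups, ALB and PTPRC among them. The other four were COL1A1 (7.51 with YAP S127A and 8.21 with the empty vector), TAT (6.36 with YAP S127A and 6.54 with the empty vector), CD14 (5.75 with YAP S127A and 6.19 with the empty vector) and PECAM1 (5.98 in both). COL1A1, TAT and CD14 were called lower with YAP S127A, and their part in the results was not tested. The gap between the 3′ and 5′ actin control probe sets, a measure of RNA integrity, was 0.89 to 1.58 with YAP S127A and 0.98 to 1.69 with the empty vector. Without the array of each group with the widest gap, an alternative added after seeing the data, LSS, DHCR7, SOAT1 and GGPS1 lost their calls. The other called genes kept theirs.

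In the first part of the pathway, up to isopentenyl diphosphate, 3 of 5 genes rose and 1 fell. HMGCS1, which makes HMG-CoA, had log2 signals of 13.09, 12.99, 12.93, 12.98 and 13.02 in YAP S127A cells, against 12.34, 12.51, 12.43 and 12.30 in empty vector cells. The groups did not overlap, and the lowest YAP S127A array stood well above the highest empty vector array. HMGCS1 rose by 0.61 (SE 0.07, adjusted p = 3.62e-05), or 1.53-fold. Its second probe set averaged 11.16 ± 0.10 with YAP S127A (SD, n = 5) and 10.45 ± 0.22 with the empty vector (SD, n = 4), and rose by 0.71 (limma adjusted p = 0.000293).

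MVK, the mevalonate kinase gene, had 8.24, 8.37, 8.39, 8.35 and 8.31 in YAP S127A cells, against 7.94, 8.04, 8.00 and 8.03 in empty vector cells. Again no array of the groups overlapped. MVK rose by 0.33 (SE 0.06, adjusted p = 0.00142), or 1.26-fold, and 2 of its other 3 probe sets rose as well, by 0.78 and 0.39. The fourth, with means of 5.50 in YAP S127A cells and 5.55 in empty vector cells, is the dimmest and differed by -0.04 (limma adjusted p = 0.705).

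MVD, which encodes the decarboxylase that makes isopentenyl diphosphate, had 7.81, 7.83, 7.34, 7.80 and 7.60 in YAP S127A cells, against 6.94, 7.09, 6.94 and 7.11 in empty vector cells. YAP S127A replicate 3 was the lowest of its group and still above every empty vector array. MVD rose by 0.66 (SE 0.10, adjusted p = 0.000604), or 1.58-fold, on its single probe set.

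PMVK, the phosphomevalonate kinase gene, acts between MVK and MVD and went the other way. It had 10.00, 10.31, 10.01, 10.20 and 10.03 in YAP S127A cells, against 10.55, 10.53, 10.22 and 10.52 in empty vector cells. Empty vector replicate 3 lay apart from the other three and within the YAP S127A range, so the groups overlapped. PMVK fell by 0.35 on the log2 scale (SE 0.09, adjusted p = 0.0164), or was 1.27-fold lower. It no longer passed without empty vector replicate 1 (-0.32), 2 (-0.33) or 4 (-0.33). ACAT2, the cytosolic thiolase gene at the entry of the pathway, averaged 12.05 ± 0.08 with YAP S127A (SD, n = 5) and 12.07 ± 0.14 with the empty vector (SD, n = 4), a difference of -0.02 with a 95% interval of -0.19 to 0.15.

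**Figure D2:**
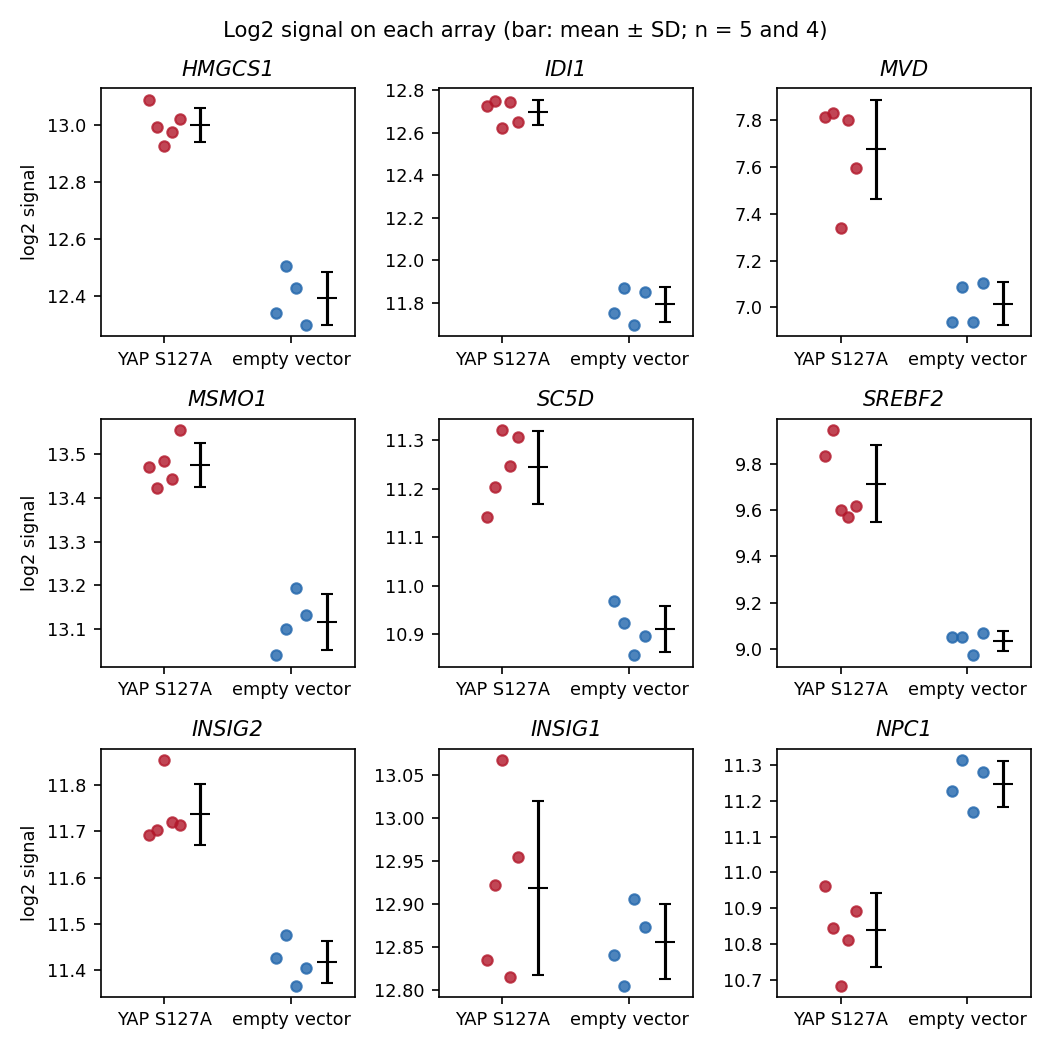
Log2 signal (y axis, a separate range in each panel) on each of 5 YAP S127A arrays and 4 empty vector arrays for 9 genes, brightest probe set, with the mean ± SD of each group as a bar. For 7 genes every YAP S127A array lies above every empty vector array, for NPC1 every one lies below, and for INSIG1 the groups overlap.

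IDI1 showed the highest rise of the 27 genes. It encodes the isomerase that turns isopentenyl diphosphate into dimethylallyl diphosphate, the primer of all longer prenyl chains. It had 12.72, 12.75, 12.62, 12.74 and 12.65 in YAP S127A cells, against 11.75, 11.87, 11.70 and 11.85 in empty vector cells. IDI1 rose by 0.90 (SE 0.06, adjusted p = 1.35e-06), or 1.87-fold, with a wide space between the groups. Its other 3 probe sets rose by 0.91, 0.47 and 0.94. By their suffix, 3 of the 4 probe sets (x_at) may also bind related transcripts.

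The next enzymes draw on that pool. FDPS, the farnesyl diphosphate synthase gene, averaged 13.30 ± 0.08 with YAP S127A (SD, n = 5) and 13.17 ± 0.07 with the empty vector (SD, n = 4), a difference of +0.14 (interval -0.01 to 0.28, limma adjusted p = 0.175). GGPS1 makes geranylgeranyl diphosphate, a lipid anchor of small GTPases, and lies on the branch away from cholesterol. Its brightest probe set had 11.48, 11.37, 11.27, 11.55 and 11.54 in YAP S127A cells, against 11.67, 11.68, 11.61 and 11.67 in empty vector cells. All YAP S127A arrays were lower, though closely so, and GGPS1 fell by 0.21 (SE 0.07, adjusted p = 0.047). That call was lost without any 1 of the 4 empty vector arrays or of YAP S127A replicates 1, 2 and 3, with differences of -0.23 to -0.17. The second probe set was clearer, at 8.70 ± 0.06 with YAP S127A (SD, n = 5) and 9.31 ± 0.04 with the empty vector (SD, n = 4), and its fall had an adjusted p = 1.48e-05 in limma.

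Between squalene and lanosterol 1 of the 2 measured genes rose. LSS, which encodes the cyclase that makes lanosterol, had 11.13, 10.97, 10.89, 10.90 and 10.90 in YAP S127A cells, against 10.63, 10.78, 10.70 and 10.78 in empty vector cells. The groups did not overlap, but the lowest YAP S127A arrays came close to the highest empty vector arrays. LSS rose by 0.23 (SE 0.07, adjusted p = 0.0308). The call was lost without empty vector replicate 1 (0.20) or 3 (0.23), or without YAP S127A replicate 1 (0.19) or 2 (0.23). Its other probe sets, at +0.22 each, did not pass. SQLE encodes squalene epoxidase, a step that limits the flow through the pathway. It averaged 11.96 ± 0.11 with YAP S127A (SD, n = 5) and 11.75 ± 0.09 with the empty vector (SD, n = 4), a difference of +0.22 that narrowly missed the threshold (adjusted p = 0.0551). All 4 of its probe sets had positive differences, of 0.17 to 0.30, and without empty vector replicate 4, the highest of its group, the difference of 0.26 passed.

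From lanosterol to cholesterol all 8 measured genes had a positive difference, though those of LBR and EBP were close to 0, and 3 passed. MSMO1, a methylsterol oxidase gene, had 13.47, 13.42, 13.48, 13.44 and 13.55 in YAP S127A cells, against 13.04, 13.10, 13.19 and 13.13 in empty vector cells. The groups were well apart, and MSMO1 rose by 0.36 (SE 0.06, adjusted p = 0.000918), or 1.28-fold. SC5D, a sterol desaturase gene of the late pathway, had 11.14, 11.20, 11.32, 11.25 and 11.31 in YAP S127A cells, against 10.97, 10.92, 10.86 and 10.90 in empty vector cells. It rose by 0.33 (SE 0.06, adjusted p = 0.00191), or 1.26-fold, with no overlap, while its dimmer second probe set, at +0.47, did not pass (adjusted p = 0.0866). DHCR7, which encodes the reductase of the last step, had 10.12, 9.96, 9.95, 10.13 and 10.12 in YAP S127A cells, against 9.55, 9.82, 9.82 and 9.85 in empty vector cells. DHCR7 rose by 0.30 (SE 0.08, adjusted p = 0.0185). Empty vector replicate 1 was the lowest of its group, and without it the difference was 0.23 and did not pass. The second probe set of DHCR7, at +0.16, did not pass either (limma adjusted p = 0.24).

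The other 5 genes of this stretch did not pass. NSDHL, a sterol dehydrogenase gene, had a difference of +0.26 at its brightest probe set (adjusted p = 0.0655), which passed without empty vector replicate 3 or YAP S127A replicate 3 (0.30 each). Its second probe set, at 11.93 ± 0.13 with YAP S127A (SD, n = 5) and 11.50 ± 0.10 with the empty vector (SD, n = 4), rose by 0.43 (limma adjusted p = 0.00201). HSD17B7, a ketosteroid reductase gene with a pseudogene copy that its x_at probe set may also read, differed by +0.17 (adjusted p = 0.0683). The sterol reductase gene TM7SF2 differed by +0.15 (adjusted p = 0.0797). Both lay higher on all YAP S127A arrays, and in a limma fit restricted to brighter probe sets both passed (adjusted p = 0.0307 and 0.0349). Of 19 alternatives, HSD17B7 passed in only 4 and TM7SF2 in only 2. LBR encodes the lamin B receptor, which catalyses the same reduction as TM7SF2. It averaged 13.14 ± 0.06 with YAP S127A (SD, n = 5) and 13.14 ± 0.04 with the empty vector (SD, n = 4), and its interval was -0.13 to 0.13. The sterol isomerase gene EBP differed by +0.03 (interval -0.09 to 0.15).

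Among the genes of SREBP control, SREBF2 and INSIG2 rose, while SREBF1, SCAP and INSIG1 did not pass. SREBF2, which encodes SREBP2, had 9.83, 9.95, 9.60, 9.57 and 9.62 in YAP S127A cells, against 9.05, 9.05, 8.97 and 9.07 in empty vector cells. YAP S127A replicates 1 and 2 were the highest, and all 5 stood clear of the empty vector arrays. SREBF2 rose by 0.68 (SE 0.09, adjusted p = 0.00012), or 1.60-fold, and by 0.76 at its second probe set (limma adjusted p = 9.01e-05). The third, dimmer probe set differed by +0.35 (limma adjusted p = 0.053). SREBF1, whose products drive mainly fatty acid synthesis, averaged 7.62 ± 0.08 with YAP S127A (SD, n = 5) and 7.62 ± 0.06 with the empty vector (SD, n = 4) (interval of the difference -0.14 to 0.15). Its second, dimmer probe set differed by +0.17 (interval 0.02 to 0.33) and did not pass (limma adjusted p = 0.104).

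INSIG2 had 11.69, 11.70, 11.85, 11.72 and 11.71 in YAP S127A cells, against 11.43, 11.48, 11.37 and 11.41 in empty vector cells. It rose by 0.32 (SE 0.06, adjusted p = 0.00216), or 1.25-fold, and YAP S127A replicate 3 was the highest array. INSIG1, the other anchor and itself a target of SREBP2, had 12.83, 12.92, 13.07, 12.82 and 12.95 in YAP S127A cells, against 12.84, 12.81, 12.91 and 12.87 in empty vector cells. Its groups overlapped, with a difference of +0.06 (interval -0.08 to 0.21, limma adjusted p = 0.583), and its other probe sets, at +0.14 and +0.20, did not pass either. SCAP differed by -0.03 (interval -0.21 to 0.15). Whether INSIG1 and INSIG2 differ from each other in their response was not tested.

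Of 4 genes of cholesterol transport and storage, 1 rose and 1 fell. NPC1 encodes the lysosomal membrane protein that passes cholesterol on from endocytosed lipoproteins. Its brightest probe set had 10.96, 10.85, 10.68, 10.81 and 10.89 in YAP S127A cells, against 11.23, 11.31, 11.17 and 11.28 in empty vector cells. Every YAP S127A array was lower, and NPC1 fell by 0.41 (SE 0.07, adjusted p = 0.00106), or was 1.33-fold lower. The other 3 probe sets, which are dimmer, differed by -0.07, -0.07 and +0.08 and did not pass, and the mean of all 4 was at -0.12 (limma adjusted p = 0.149). NPC2, the soluble partner of NPC1, averaged 13.74 ± 0.02 with YAP S127A (SD, n = 5) and 13.64 ± 0.04 with the empty vector (SD, n = 4), a difference of +0.10 (limma adjusted p = 0.242), although its groups did not overlap. SOAT1, which esterifies cholesterol for storage, averaged 11.27 ± 0.06 with YAP S127A (SD, n = 5) and 11.09 ± 0.04 with the empty vector (SD, n = 4) and rose by 0.18 (SE 0.06, adjusted p = 0.0399). That call was lost without empty vector replicate 1 (0.16), 2 (0.19) or 4 (0.19) or YAP S127A replicate 1 (0.17), 2 (0.19), 4 (0.18) or 5 (0.18), after quantile normalization (adjusted p = 0.0551) or centring of the arrays (adjusted p = 0.0506), and as the mean of its probe sets (0.09). STARD4, a cytosolic sterol carrier gene, differed by +0.13 (limma adjusted p = 0.309).

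Of all 56 probe sets of these genes 23 passed, where 23.9% of all probe sets did. Among the 56, 19 rose (33.9%) and 4 fell (7.14%), where 11.9% of all probe sets rose and 12% fell. Of the 15 genes with several probe sets, 12 had differences of 1 sign at all of them, and 0 had probe sets called in opposite directions. All probe sets passed for IDI1 (4 of 4 higher), HMGCS1 (2 of 2 higher) and GGPS1 (2 of 2 lower), among the genes with several.

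**Figure D3:**
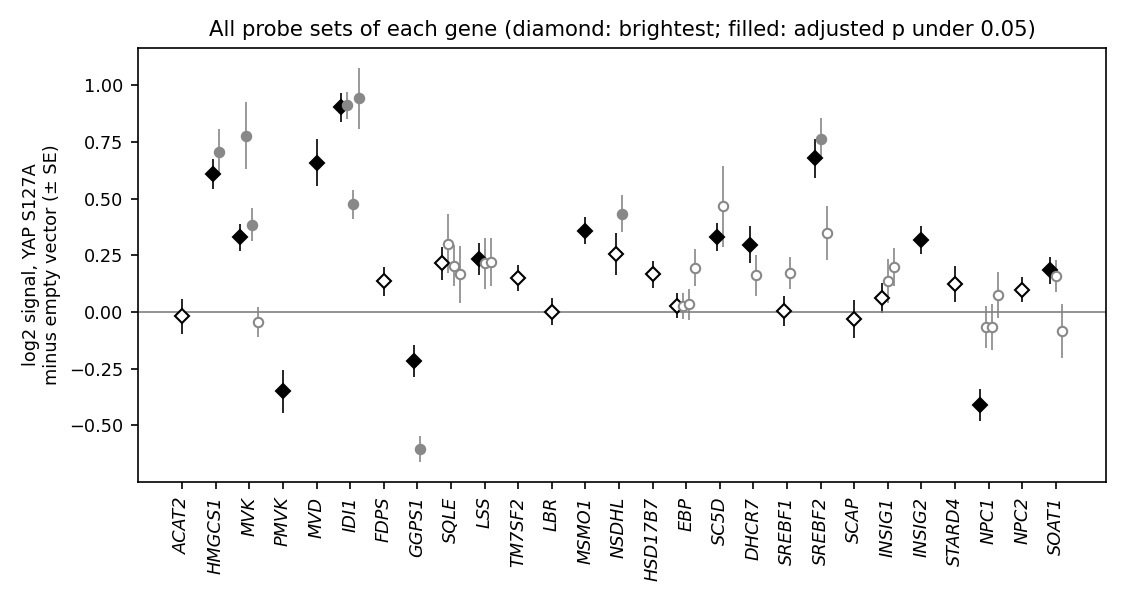
Log2 signal difference (y axis, YAP S127A minus empty vector, ± SE from limma) of all 56 probe sets, by gene in the order of the pathway. Diamonds mark the brightest probe set of a gene and filled symbols an adjusted p under 0.05; all 4 IDI1 probe sets lie between 0.47 and 0.94, and for NPC1 the brightest lies at -0.41 with the others near 0.

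Each gene was also set beside its neighbours on the chromosome, as the median of up to 50 expressed genes around it on each array. The neighbours of IDI1 on chromosome 10 lay higher by 0.56, those of SREBF2 on chromosome 22 by 0.34 and those of MVD on chromosome 16 by 0.26. The neighbours of DHCR7 and SC5D, on chromosome 11, lay higher by 0.15 and 0.12. These are 5 of the 11 genes that rose. For another 5, namely HMGCS1, MVK, MSMO1, LSS and INSIG2, the neighbours differed by less than 0.1: by 0.03, 0.03, -0.03, 0.00 and -0.03. For SOAT1 on chromosome 1 they lay lower, at -0.24. HMGCS1 thus rose while the genes around it hardly differed: their median was at 0.03 ± 0.03 with YAP S127A (SD, n = 5) and -0.01 ± 0.02 with the empty vector (SD, n = 4), each gene being measured from its own mean without YAP S127A. Whole chromosomes differed as well. On chromosome 10, 264 of 473 genes counted rose and 24 fell. On chromosome 16, 348 of 571 rose and 9 fell, and on chromosome 22, 115 of 297 rose and 11 fell. On chromosome 5, which holds HMGCS1, 62 of 539 rose and 138 fell.

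Several genes that did not pass stood among neighbours that were lower. The neighbours of ACAT2 on chromosome 6 were at -0.42, those of FDPS, LBR and HSD17B7 on chromosome 1 at -0.27, -0.27 and -0.32, and those of SQLE on chromosome 8 at -0.28. The neighbours of PMVK and GGPS1, also on chromosome 1, were at -0.21 and -0.26, while those of NPC1 on chromosome 18 were at 0.01. With the neighbours' median removed on each array, 17 of the 27 genes were higher, where 16.8% of all genes were, and 1 was lower, where 16.7% were. Of the 17, 10 were among the 11 that rose without the removal, and 7 had not passed: ACAT2 (0.40), FDPS (0.41), SQLE (0.49), LBR (0.27), HSD17B7 (0.48), STARD4 (0.26) and NPC2 (0.24). IDI1 was then higher by 0.34 (limma adjusted p = 0.000989), SREBF2 by 0.34 (limma adjusted p = 0.00676), MVD by 0.40 (limma adjusted p = 0.00337) and HMGCS1 by 0.58 (limma adjusted p = 3.17e-05). DHCR7, at 0.15, no longer passed. Neither did PMVK, at -0.14, or GGPS1, at 0.05, whereas NPC1 stayed lower at -0.42. For each of these 7 genes the neighbours' shift was larger than the gene's own difference; ACAT2 and LBR themselves differed by -0.02 and 0.00.

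**Figure D4:**
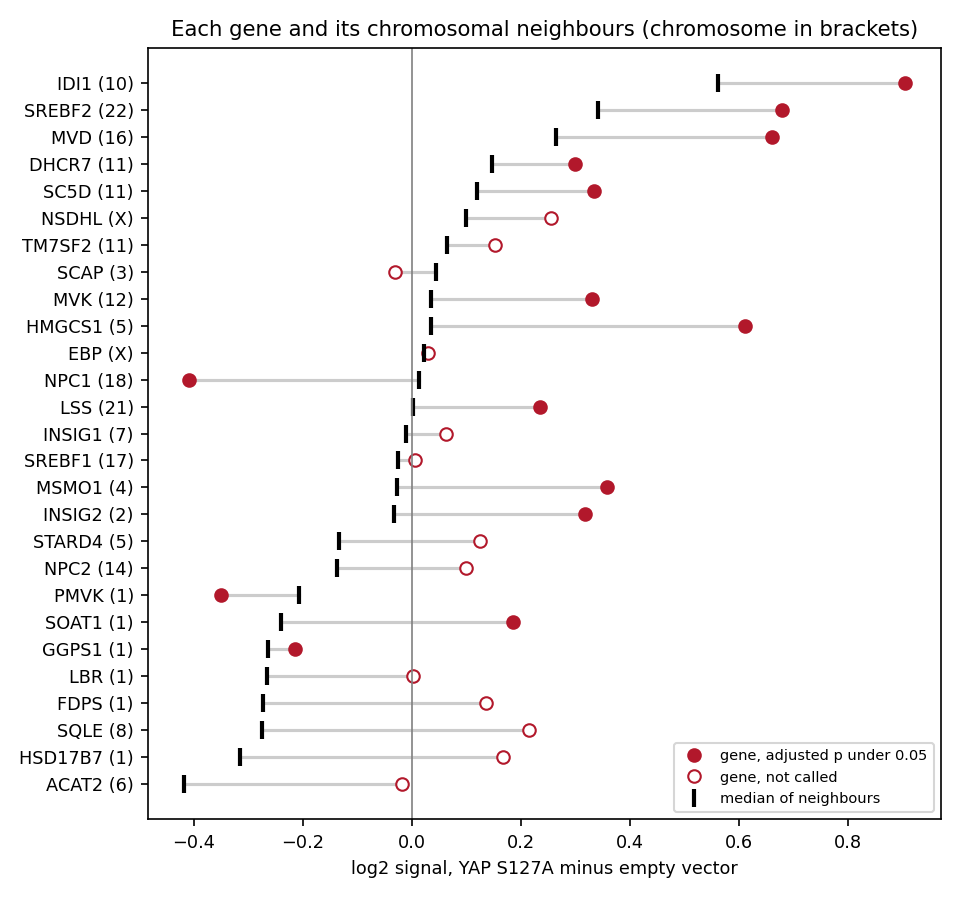
Log2 signal difference (x axis, YAP S127A minus empty vector) of each gene (circle, filled where the adjusted p was under 0.05) and the median difference of its neighbours on the chromosome (bar), ordered by the neighbours. The circle lies to the right of the bar for most genes, whether the neighbours were lower, as for SQLE at -0.28, or higher, as for IDI1 at 0.56; NPC1, PMVK and SCAP lie to the left.

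Genes of the surrounding sterol and lipid metabolism, 61 in 6 lists of which 54 had a probe set, moved both ways. Of the 54, 15 rose (27.8%) and 15 fell (27.8%), where 14.5% of all genes rose and 14.2% fell, and their median was -0.03. Of 5 further sterol enzymes and their electron donors 2 rose, CYB5R3 by 0.63 (SE 0.08, adjusted p = 0.000125) and CYB5B by 0.64, with neighbours higher by 0.36 and 0.39. They encode a cytochrome b5 reductase and a mitochondrial cytochrome b5. Of 12 genes on the isoprenoid branch 4 rose and 6 fell, 83.3% in all, where 28.7% of all genes passed. The shares of all genes in this paragraph include dim genes, while most genes of the branch lay well above 5.96. DHDDS, a subunit gene of the enzyme that makes the dolichol chain, rose by 0.59, and NUS1, which encodes the other subunit, fell by 0.53, with neighbours at 0.14 and -0.41. PDSS2, of the ubiquinone side chain, fell by 0.76, although 1 of its 4 probe sets carried that call and their mean, at -0.16, did not pass, and FNTA, a prenyltransferase subunit gene, fell by 0.54.

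Of 8 genes for SREBP processing and sterol-regulated degradation 3 rose and 2 fell. The Golgi protease genes MBTPS1 and MBTPS2 rose by 0.37 and 0.31, and the neighbours of MBTPS1 were higher by 0.38, so that it was at -0.01 with them removed. For MBTPS2, 1 of 3 probe sets passed, and their mean, at 0.14, did not. ERLIN1, which encodes a protein of the endoplasmic reticulum membrane, rose by 0.43, with neighbours higher by 0.32. The ubiquitin ligase gene RNF139 fell by 0.40, with neighbours at -0.26. With them removed it was at -0.14 and no longer passed (limma adjusted p = 0.103). FBXW7, which marks nuclear SREBP for degradation, fell by 0.28, with neighbours at -0.02. Of 13 genes for uptake, transport and esters 2 rose and 4 fell. LIPA, the lysosomal acid lipase gene, rose by 0.86 (SE 0.06, adjusted p = 1.14e-06), with neighbours higher by 0.36. Of its 2 probe sets 1 passed, and their mean was at 0.47. The sterol carrier gene STARD5 rose by 0.47. MYLIP encodes a ubiquitin ligase that removes lipoprotein receptors. It fell by 0.62 (SE 0.07, adjusted p = 5.03e-05), with 3 of its 6 probe sets lower and their mean at -0.37. GRAMD1C, a sterol transfer gene, fell by 0.50 on its single probe set. That probe set was dim, at 5.69 with YAP S127A and 6.19 with the empty vector.

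Among the genes of these lists the widest difference was in cholesterol efflux. ABCA1, the transporter gene that loads cholesterol onto apolipoproteins, had 5.59, 5.58, 5.37, 5.66 and 5.41 in YAP S127A cells, against 8.02, 8.18, 7.95 and 7.63 in empty vector cells. Its log2 signal fell by 2.43 (SE 0.11, adjusted p = 2.96e-08), with 2 of its 4 probe sets lower and their mean at -1.12. With YAP S127A its level, 5.52, lay near that of the endothelial marker CDH5, 5.43, so no fold is given. CYP27A1, a sterol hydroxylase gene, fell by 0.51, and NR1H3, which encodes the oxysterol receptor LXR alpha, rose by 0.30; these 3 passed of 7 measured for efflux and oxysterols. ABCG1, another efflux transporter gene, was not called at its brightest probe set (-0.08), but 2 of its 4 probe sets were lower and their mean was at -0.64 (limma adjusted p = 3.04e-05). Among 9 lipogenic targets of SREBP1, 3 rose and 1 fell. GPAM, an acyltransferase gene of triglyceride synthesis, fell by 1.43 (SE 0.10, adjusted p = 9.75e-07), and ACSS2, FADS2 and SCD rose by 0.46, 0.39 and 0.22. For FADS2 the mean of its probe sets was at 0.22. All 4 probe sets of SCD rose, with a mean of 0.42, and its neighbours were higher by 0.36.

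**Figure D5:**
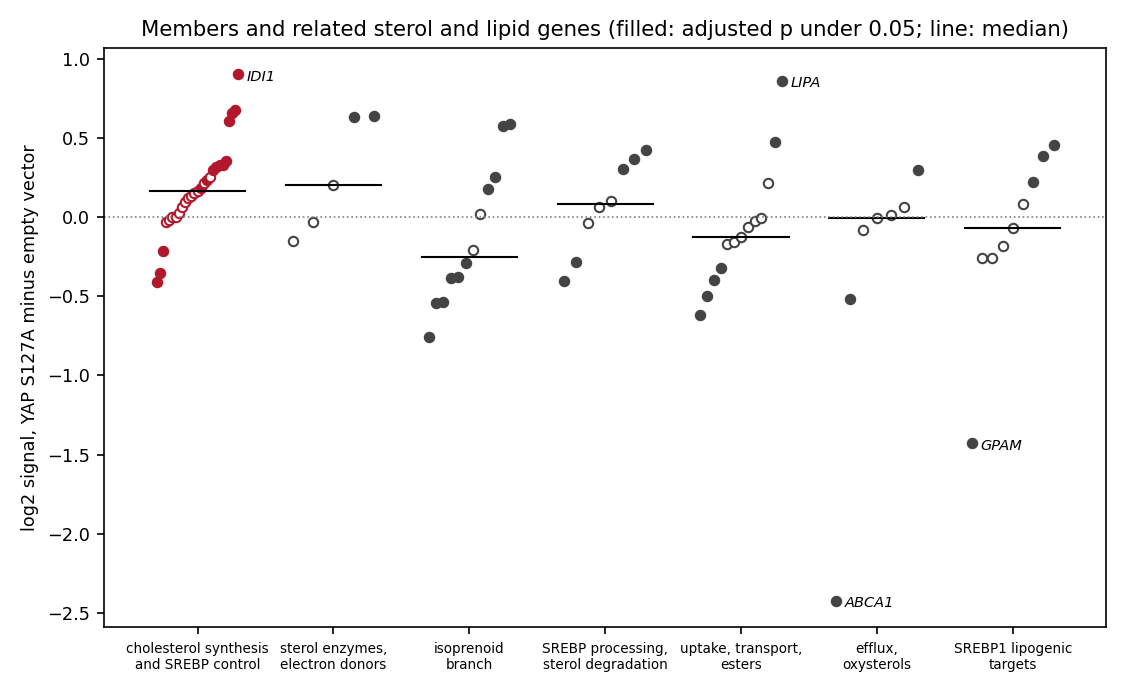
Log2 signal difference (y axis, YAP S127A minus empty vector) of the 27 genes of cholesterol synthesis and SREBP control (left, red) and of 54 related genes in 6 lists (grey), brightest probe set. Filled points passed an adjusted p of 0.05 and lines mark medians, which lie at 0.17 for the 27 genes; ABCA1 at -2.43 and GPAM at -1.43 lie lowest.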

How the data were processed

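Total RNA was amplified, labelled with biotin and hybridised to single-colour arrays, per the labels' protocols. The deposited table holds 54675 probe sets by 9 arrays. Its values run from 1.62 to 14.96 and were taken as log2 signals, since no header states the unit. The authors' normalization and summary of these log2 values were done in ways not given in the sources used here. Their array medians were nearly equal, and no further scaling was applied. There were 0 columns of other samples.

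Leaving out 62 controls, 54613 probe sets entered the tests. GEO's platform table gave a single gene to 41091, more than 1 to 1801 and no gene to 11721. Symbols were updated by gene ID through RefSeq (GRCh38.p14), which matched 41037. The probe set with the highest mean stood for its gene. Groups came from the vector in the sample titles and were compared in limma 3.58.1 (R 4.3.3; lmFit, eBayes, no covariate), with Benjamini-Hochberg adjustment over all probe sets, a threshold of 0.05 and 11.4 degrees of freedom. Errors are SDs beside levels and SEs beside differences. Neighbours are up to 25 genes on each side with a mean above 5.96. Every member that passed or did not overlap between groups is named, as are up to 4 called genes of each related list with the lowest p. FBXW7 completes a count. The members, lists and alternatives were chosen with earlier results of these data known. Promoter windows came from RefSeq. No base positions of probe sets are given.

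The fit was tested on simulated data with 50 changes of each size. It recovered 2% of changes of 0.25 on the log2 scale, 54% of 0.5 and 100% of 1 and of 2, with 10 false calls. Far fewer probe sets changed there than passed in the real data, which affects the adjustment, so these rates do not carry over directly. A gene with a small difference that did not pass may still differ. Alternatives covered normalization, centring, dim probe sets, the variance model, array weights, the replicate number, RNA integrity, the probe set that stands for a gene, the neighbours and each array left out. The number of arrays limits the precision.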

Additional observations from a re-analysis of the deposited data

Results flagged for a closer look

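In each group, the highest or lowest array was compared with the rest for the brightest probe set of the 27 genes. Of 54 such sets of arrays, 4 held an array set apart from the others by a gap that took up most of the range of its group. Chance flags about 1 in 20. For PMVK, empty vector replicate 3 stood at 10.22, while the nearest other array was at 10.52. For SQLE, empty vector replicate 4 stood at 11.88, above the next at 11.72. For DHCR7, empty vector replicate 1 stood at 9.55, below the next at 9.82. For INSIG2, YAP S127A replicate 3 stood at 11.85, above the next at 11.72.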

How the results depend on the processing

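For the 27 genes, 513 differences were recomputed under 19 alternatives each. Of these, 430 kept their direction and side of the threshold, 37 lost the call with the same sign, 23 gained it with the same sign and 23 changed sign. Called and of the same direction under all 19 were HMGCS1, MVK, MVD, IDI1, MSMO1, SC5D, SREBF2 and INSIG2. With the neighbours' median removed, 17 genes were higher and 1 lower, and 2 of the changes of sign touched a call: ACAT2 was at 0.40, called higher, and GGPS1 at 0.049, no longer lower. The other changes of sign were in genes close to 0 that were called in neither fit. LBR was at -0.0092 after quantile normalization, -0.0041 with centred arrays, -0.0057 with array weights and -0.0048 with the replicate block. SREBF1 was at -8.2e-05 with centred arrays, -0.0090 with array weights and -0.043 without the widest actin gaps, and SCAP at 0.026 with the actin gap as a covariate. With each array left out in turn, ACAT2 ranged from -0.082 to 0.023, LBR from -0.018 to 0.020, SREBF1 from -0.021 to 0.030 and SCAP from -0.085 to 0.010. Leaving out each array in turn gave 8 to 12 genes higher and 1 to 3 lower, with 1 lower without empty vector replicate 1, 2 or 4. The shares of all genes that rose or fell in each of these fits are not given here, so the counts have no background beside them. Apart from the neighbours' removal with its 17, other settings gave 8 to 15 higher. Of these the most came with dim probe sets left out, where fewer probe sets are tested.

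With the replicate number as a block (8 arrays), 8 genes were higher and 2 lower, 17 did not overlap, 29 of the related genes passed, and 4459 genes and 10306 probe sets passed in all. The values gave no sign that the numbers pair the samples: deviations of same-numbered arrays correlated at -0.46 to 0.03, and 0 of 4 empty vector arrays correlated best with their own number. So few arrays cannot show whether same-numbered samples were prepared together. A planned pseudocount was not needed for log values. Signal over background cannot be given, since the table holds no detection calls, and small differences are limited by the number of arrays.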
